A study of Mus musculus with 6 samples.

Results

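Ciliary transport and BBSome genes were followed in RNA-seq of mouse cochlear tissue, the cochlea being the coiled organ of hearing. The sample titles say cochlear and name no dissected part. The set holds 37 genes of 55769 features in the deposited tables, taken from a fixed list of symbols and grouped by complex: 6 genes of intraflagellar transport complex A (IFT-A), 14 of complex B (IFT-B), 6 motor genes and 11 genes of the BBSome and its helpers. The list is made of gene symbols and its rule uses no measured value, but it was chosen with earlier results of these data known. Cochlear tissue of Plscr5-/- mice and of wild type mice was collected at P3 (postnatal day 3), and each genotype gave 3 libraries. Plscr5 is a phospholipid scramblase gene, from a family whose name refers to lipids crossing between the leaflets of a membrane. No other allele or agent is named in the genotype labels, and strain, sex, the altered part of the gene and the number of cochleae per library are not stated in the labels. The extraction text names Pou4f3(Δ/+) mice, which no genotype label lists, and groups follow the genotype labels. Nothing says that the libraries of a genotype came from separate animals, so p-values measure the spread between these libraries, which may be technical.

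Nearly every mammalian cell can build a primary cilium, a microtubule-based antenna that has no protein synthesis of its own. Intraflagellar transport carries cargo along it on trains that hold both IFT-B and IFT-A. Kinesin-2 motors drive them towards the tip, for which IFT-B is needed. Cytoplasmic dynein-2 returns them to the base, for which IFT-A is needed. The BBSome is a coat-like adaptor that rides on these trains and moves membrane proteins, and its loss gives Bardet-Biedl syndrome in people. In the cochlea the developing hair cell carries a true cilium, the kinocilium, beside its actin-based bundle, and supporting cells carry primary cilia, and loss of ciliary transport is known to disturb bundle orientation and the outgrowth of the cochlear duct.

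Many ciliary genes are controlled by RFX transcription factors, which bind an inverted repeat called the X-box, so the 250 bases before each RefSeq transcription start (build GRCm38.p6) were searched on both strands. The letters were GTNNCC and NGNAAC with 1 to 3 free bases between them. Of 34 windows that matched 33 members, 4 held it (11.8%), as did 3.67% of 32851 windows over all genes. The shorter motif GTTGCC, which can lie inside the X-box, was present in 7 member windows (20.6%) and in 10.4% of all windows. The members with an X-box match were Bbs7, Ift22, Ift57 and Kif17, and each match is shown in capitals with its flanks, read 5′ to 3′ on the gene's strand. The coordinates are chr3:36613477-36613530 (minus strand) for Bbs7, chr5:136908067-136908149 (plus) for Ift22, chr16:49699187-49699266 (plus) for Ift57 and chr4:138262158-138262210 (plus) for Kif17.
Bbs7: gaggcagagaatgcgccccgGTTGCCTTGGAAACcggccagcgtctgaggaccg
Ift22: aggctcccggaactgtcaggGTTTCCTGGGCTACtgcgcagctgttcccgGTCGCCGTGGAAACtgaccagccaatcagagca
Ift57: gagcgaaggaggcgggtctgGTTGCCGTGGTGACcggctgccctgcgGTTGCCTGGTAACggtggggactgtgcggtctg
Kif17: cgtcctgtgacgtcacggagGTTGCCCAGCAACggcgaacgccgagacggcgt
The windows of Bbs5 at chr2:69646921-69647170 (plus) and of Ttc8 at chr12:98920324-98920573 (plus) are shown because these 2 genes had the smallest p-values of the set, and neither held the letters of either motif.
Bbs5: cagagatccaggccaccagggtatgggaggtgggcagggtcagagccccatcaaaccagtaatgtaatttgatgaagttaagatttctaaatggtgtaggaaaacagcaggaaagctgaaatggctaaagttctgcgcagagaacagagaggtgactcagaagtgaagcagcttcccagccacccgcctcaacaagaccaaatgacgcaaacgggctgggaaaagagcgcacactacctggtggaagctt
Ttc8: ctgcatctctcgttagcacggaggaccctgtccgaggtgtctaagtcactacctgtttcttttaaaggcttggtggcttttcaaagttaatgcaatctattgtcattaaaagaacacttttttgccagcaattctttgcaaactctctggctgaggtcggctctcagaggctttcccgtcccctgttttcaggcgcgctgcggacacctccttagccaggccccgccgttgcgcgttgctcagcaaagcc
A match describes letters and not a binding site. The 4 members with an X-box match had a median log2 fold change of 0.11 between genotypes, with 3 positive and 1 negative, and the 29 members whose windows had none had a median of -0.05, with 10 positive and 19 negative.

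Values are in TPM, a length-scaled transcript abundance with the same total in every library, which allows levels of different genes to be compared. Read depth is unknown, because TPM keeps no read totals. Log2 fold changes subtract wild type from Plscr5-/- after the transform log2(TPM + 1), so low genes change by more than their fold shows, and errors are SD over 3 libraries. Plscr5 was at 4.30, 3.69 and 5.01 TPM in the Plscr5-/- libraries and at 14.53, 12.42 and 9.27 TPM in wild type, with no overlap. Its log2 fold change was -1.28 (SE 0.18, limma unadjusted p = 0.000119, adjusted p = 0.29), which did not pass the threshold of 0.05. Defining hair cell markers were present, with Pou4f3 between 31.24 and 37.78 TPM and Myo7a between 30.01 and 45.27 TPM. Of 10 markers of cells with many motile cilia 5 passed the filter, among them Ccdc39 between 23.92 and 36.00 TPM and Tekt1 between 9.23 and 15.84 TPM, while Dnah5 was at 0.04 TPM or less and Deup1 at 0.39 TPM or less. The list summed to between 57.1 and 65.7 TPM in Plscr5-/- and between 62.2 and 72.2 TPM in wild type, and its part in the member values was not tested. Wild type replicate 3 stood apart in markers of nerve and of dividing cells: its median over 10 neuron markers was -1.38 on the centred log2 scale, with the other 5 libraries between -0.05 and 0.57, and over 10 dividing cell markers it was -0.70, with the others between -0.03 and 0.37. In the member set that library was at -0.03.

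All 37 members passed the filter of 1 TPM in 3 libraries, the lowest single value being 2.46 TPM, so the filter removed none of them. After Benjamini-Hochberg adjustment over 17097 tested features, 0 members differed between genotypes (smallest limma adjusted p = 0.989), where 0.0117% of all tested features did, and 2 members had an unadjusted p under 0.05, both lower in Plscr5-/-. That is 5.41% of the members, beside 4% of all tested features. The genotypes did not overlap at 5 members (13.5%), beside 9.33% of all tested features. Of these 2 were higher and 3 lower, where 4.60% and 4.74% of all tested features were. By sign, 24 members were lower and 13 higher. Their median log2 fold change was -0.05, beside -0.01 for all tested features. Between 18 and 29 members were lower when single libraries were left out, and the median ran from -0.10 to 0.00. The 95% confidence interval of the fold in TPM + 1 lay within 1.5-fold in either direction for 35 of 37 members (94.6%). It did so for 72.4% of all tested features. The exceptions on this scale were Bbs5 and Mkks, and all 37 intervals lay within 2-fold. The added 1 TPM pulls low genes towards equality. Kif17 had an upper bound of 1.46-fold, and its log2 fold change of 0.20 was 0.26 with a pseudocount of 0.1.

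**Figure D1:**
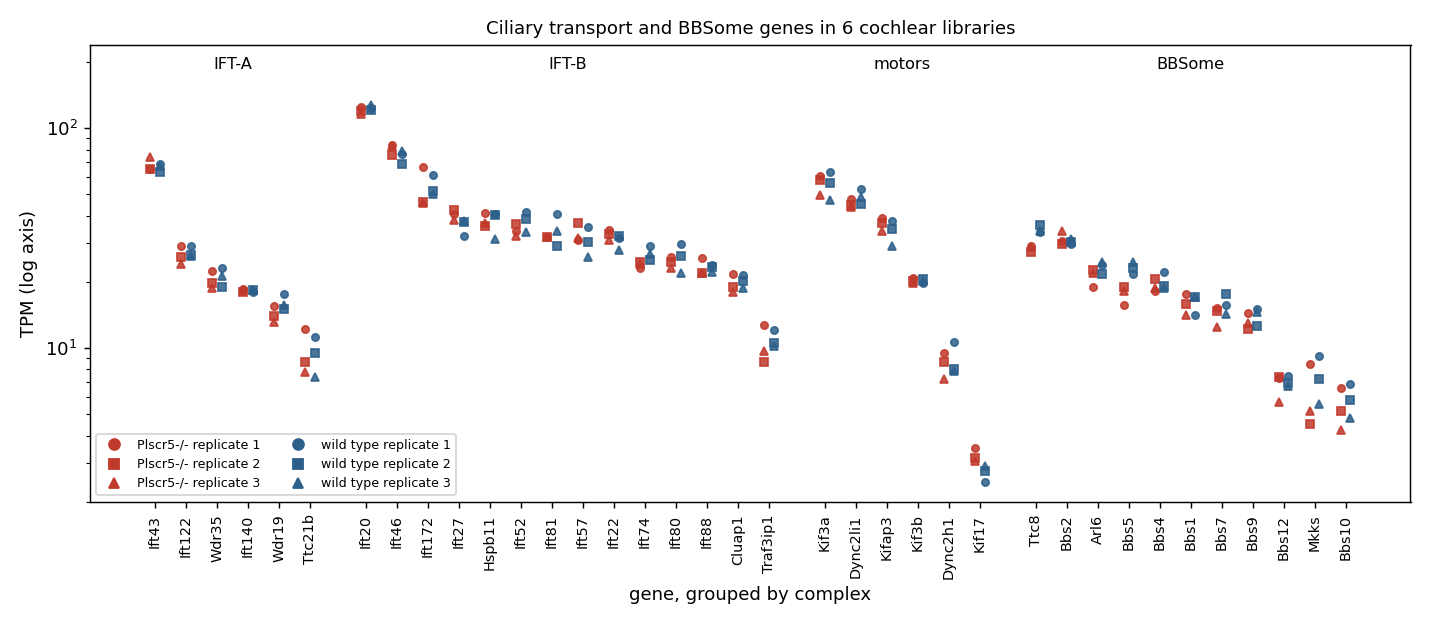
TPM on a log axis for the 37 genes, grouped by complex and ordered by mean level, with 1 point per library (red, Plscr5-/-; blue, wild type; marker shape, replicate number). Levels run from 2.46 TPM (Kif17) to 128 TPM (Ift20), and the genotypes overlap at all but 5 genes.

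IFT-B genes had the highest levels of the 4 groups. The median member level over all 6 libraries was 32.6 TPM for IFT-B, 27.8 TPM for the motors, 19.5 TPM for IFT-A and 16.0 TPM for the BBSome genes. Together the 37 genes summed to between 1034 and 1122 TPM in the Plscr5-/- libraries and between 1056 and 1154 TPM in wild type, so the sums overlapped. Replicate 1 of each genotype was often the highest. Wild type replicate 1 was the highest library for 15 members and Plscr5-/- replicate 1 for 13, while Plscr5-/- replicate 3 was the lowest for 14. Across the 37 members, the deviation of Plscr5-/- replicate 1 from the mean library had a Pearson r of 0.42 with the log2 length of the longest annotated transcript. The r over members was 0.17 for wild type replicate 1 and between -0.29 and -0.07 for the other libraries. Over 14240 protein-coding genes it was 0.13 for Plscr5-/- replicate 1, 0.16 for wild type replicate 1 and between -0.20 and -0.01 for the others. These are correlations across genes of 1 library, which are not independent replicates, and the part of transcript length in the member results was not tested.

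The BBSome group had the members furthest from equality. Bbs5, a core subunit with domains that bind phosphoinositide lipids, was at 15.65, 18.99 and 18.25 TPM in the Plscr5-/- libraries and at 21.79, 23.05 and 24.54 TPM in wild type. All Plscr5-/- values lay below all wild type values, with Plscr5-/- replicate 1 the lowest. The means were 17.6 ± 1.75 and 23.1 ± 1.38 TPM, so the Plscr5-/- mean was 76.2% of wild type. The log2 fold change was -0.38 (SE 0.11, 95% confidence interval -0.62 to -0.13), with a limma unadjusted p of 0.00751 that ranked 72 among all tested features and an adjusted p of 0.989.

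Ttc8, also called BBS8, a core subunit built of tetratricopeptide repeats, was at 29.20, 27.46 and 28.96 TPM in Plscr5-/- and at 33.68, 36.32 and 33.94 TPM in wild type. The groups did not overlap, and the Plscr5-/- mean was 82.4% of wild type (28.5 ± 0.94 against 34.7 ± 1.45 TPM). Its log2 fold change was -0.27 (SE 0.08, 95% confidence interval -0.46 to -0.09, limma unadjusted p = 0.00993, adjusted p = 0.989). Neither Bbs5 nor Ttc8 shares exon bases with another gene in the annotation used. Over the 15 alternative settings the unadjusted p stayed under 0.05 for both, from 0.00462 to 0.0253 for Bbs5 and from 0.00853 to 0.0479 for Ttc8, and the adjusted p was never under 0.663.

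**Figure D2:**
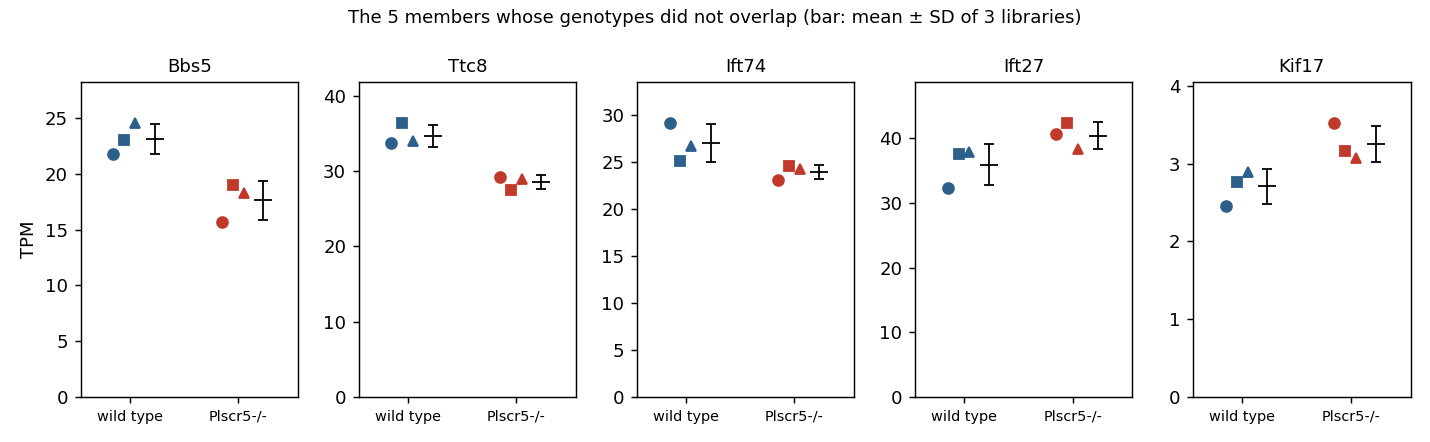
TPM by library for the 5 members whose genotypes did not overlap, each on its own axis from 0 (blue, wild type; red, Plscr5-/-; circle, square and triangle, replicates 1, 2 and 3), with the mean ± SD of 3 libraries beside the points. Bbs5, Ttc8 and Ift74 are lower in all 3 Plscr5-/- libraries, Ift27 and Kif17 are higher, and none passed after adjustment.

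The other 5 core subunits among the members overlapped between genotypes. Bbs2, a subunit with a beta-propeller, was at 31.5 ± 2.45 TPM in Plscr5-/- and 30.5 ± 0.89 TPM in wild type, and was the 1 gene of the group with a higher mean. Bbs4, a repeat protein that binds the centriolar satellite protein Pcm1, was at 19.2 ± 1.27 and 20.1 ± 1.81 TPM. Bbs1, the subunit through which Arl6 binds the complex, was at 15.9 ± 1.72 and 16.1 ± 1.68 TPM. Bbs7 and Bbs9, which also hold beta-propellers, were at 14.2 ± 1.47 and 15.9 ± 1.72 TPM, and at 13.2 ± 1.12 and 14.1 ± 1.25 TPM.

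Summed over the 7 core subunits among the members, the level was 140.8, 139.6 and 140.0 TPM in Plscr5-/- and 152.1, 156.2 and 154.7 TPM in wild type. Bbs5 and Ttc8 together gave 11.6 TPM of the difference of 14.2 TPM between the means. The remaining 5 core subunits summed to 95.92, 93.14 and 92.75 TPM and to 96.61, 96.87 and 96.20 TPM, a difference of 2.62 TPM. Within a library, Bbs5 made up 11.1%, 13.6% and 13.0% of the core sum in Plscr5-/- and 14.3%, 14.8% and 15.9% in wild type, and Ttc8 20.7%, 19.7% and 20.7% against 22.1%, 23.2% and 21.9%. Both shares were lower in every Plscr5-/- library than in any wild type library. The share of Bbs2 was higher, at 21.7%, 21.2% and 24.5% against 19.5%, 19.4% and 20.3%, and shares of 1 sum move against each other. With Bbip1, the eighth core subunit, which is not a member, the sum was 216.2, 219.7 and 217.3 TPM in Plscr5-/- and 229.9, 227.0 and 218.3 TPM in wild type. These groups overlapped, and the difference between the means was 7.33 TPM. These sums and shares were formed after the values of Bbs5 and Ttc8 were seen and are a description.

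The helpers of the BBSome were lower by sign. Arl6, the small GTPase that recruits the BBSome to membranes, was at 18.96, 22.76 and 21.84 TPM in Plscr5-/- and at 23.93, 21.76 and 24.74 TPM in wild type. The groups overlapped, since wild type replicate 2 lay below Plscr5-/- replicates 2 and 3. The 3 chaperonin-like genes that help to assemble the complex were the lowest of the group: Bbs10 at 6.56, 5.20 and 4.23 TPM in Plscr5-/- and 6.84, 5.80 and 4.82 TPM in wild type, Bbs12 at 6.78 ± 0.95 and 7.07 ± 0.38 TPM, and Mkks at 6.06 ± 2.11 and 7.35 ± 1.85 TPM. Mkks had the widest spread of all 37 members, with a coefficient of variation of 28.5% over the 6 libraries. The annotation gives it 944 of 3227 exon bases in common with 1 protein-coding gene on the same strand (mean 16.7 TPM), 180 with another (mean 19.8 TPM) and 172 with Slx4ip on the opposite strand, so its value is uncertain.

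Of the 11 BBSome genes 10 were lower by sign, and their median log2 fold change was -0.11, beside -0.01 for all tested features, of which 53.4% were negative. When single libraries were left out, between 8 and 10 of the 11 were negative, and the median ran from -0.14 to -0.07. The summed level was 176.9 to 182.1 TPM in Plscr5-/- and 196.5 to 199.6 TPM in wild type.

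**Figure D3:**
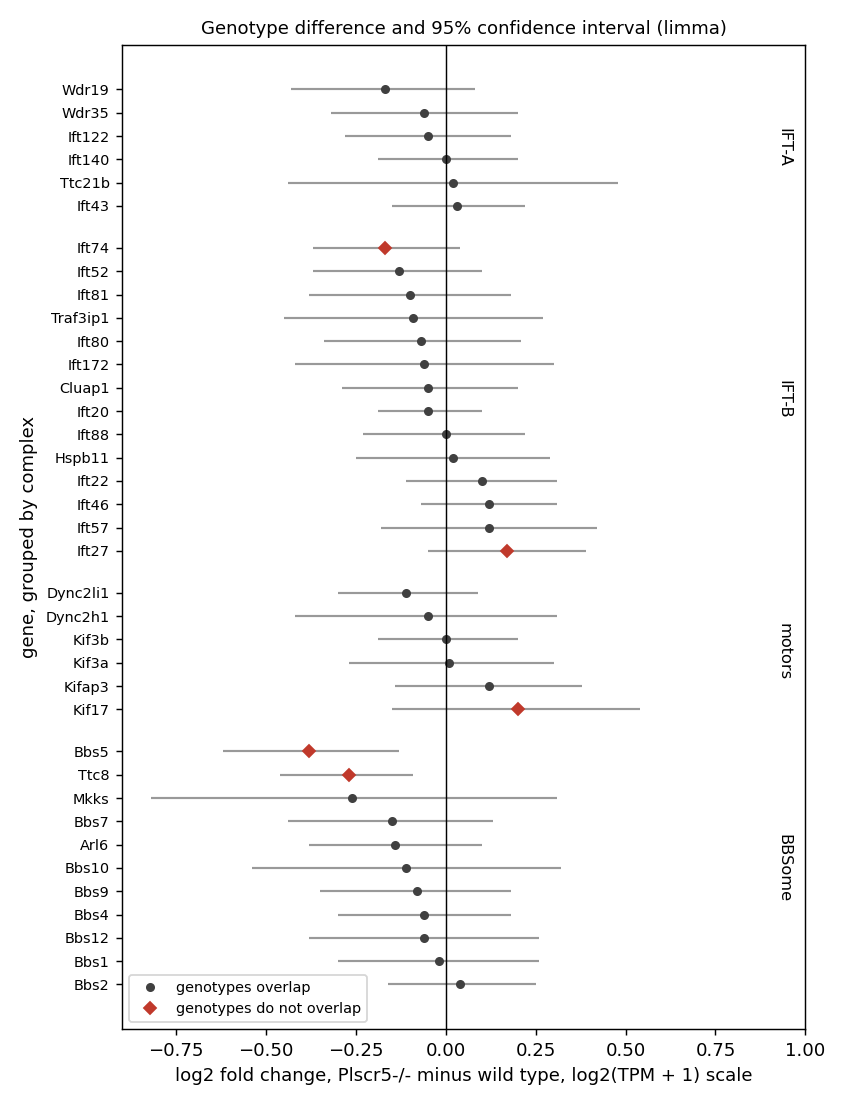
Log2 fold change with its 95% confidence interval from limma for each of the 37 genes, grouped by complex (red diamonds, genotypes do not overlap). The intervals of Bbs5 (-0.62 to -0.13) and Ttc8 (-0.46 to -0.09) lie below 0, and those of the other 35 members include 0.

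IFT-B, needed for transport towards the tip, had members on both sides of 0. Of 14 genes 9 were lower and 5 higher by sign (median log2 fold change -0.05). Ift74, which with its partner Ift81 forms a module that binds tubulin, was at 23.03, 24.52 and 24.21 TPM in Plscr5-/- and at 29.09, 25.13 and 26.72 TPM in wild type. The groups did not overlap but came within 1 TPM of each other (log2 fold change -0.17, SE 0.09, limma unadjusted p = 0.105). Ift81 itself was at 32.0 ± 0.12 and 34.6 ± 5.77 TPM, with 40.69 TPM in wild type replicate 1. Ift27, a small GTPase that links IFT-B to the exit of the BBSome from cilia, was at 40.68, 42.30 and 38.28 TPM in Plscr5-/- and at 32.25, 37.53 and 37.89 TPM in wild type. Here too the groups lay side by side without overlap (log2 fold change 0.17, SE 0.09, limma unadjusted p = 0.107). Hspb11, which encodes IFT25, the partner of Ift27, was at 37.9 ± 2.66 and 37.5 ± 5.28 TPM. For Ift74 and Ift27 the unadjusted p was above 0.05 in every alternative setting.

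The other core genes of IFT-B overlapped between genotypes. Ift22, a GTPase-like subunit, was at 32.8 ± 1.75 and 30.6 ± 2.30 TPM, and Ift46, known to carry outer dynein arm cargo, at 80.8 ± 4.64 and 74.4 ± 5.28 TPM. Ift52 and Ift88, central subunits without which the complex does not hold together, were at 34.4 ± 2.19 and 37.9 ± 3.92 TPM and at 23.1 ± 2.17 and 23.2 ± 0.93 TPM. Among the peripheral genes, Ift20, which also sits at the Golgi, had the highest level of all 37 members, at 124.26, 119.89 and 116.16 TPM in Plscr5-/- and 123.52, 121.21 and 128.00 TPM in wild type. Ift172, the longest peripheral subunit, was at 66.58, 45.95 and 45.67 TPM in Plscr5-/- and at 60.97, 52.09 and 50.18 TPM in wild type, so replicate 1 was the highest library of each genotype. Ift57 was at 33.2 ± 3.24 and 30.7 ± 4.79 TPM, Ift80 at 24.6 ± 1.42 and 26.0 ± 3.80 TPM and Cluap1, a tubulin-binding subunit, at 19.5 ± 1.91 and 20.2 ± 1.38 TPM. Of these, Cluap1 shares 510 of 2279 exon bases with a same-strand gene and is uncertain. The lowest IFT-B gene was Traf3ip1, which encodes IFT54, at 12.71, 8.62 and 9.75 TPM in Plscr5-/- and 12.12, 10.54 and 10.27 TPM in wild type.

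IFT-A, needed for return to the base and for entry of membrane receptors, showed no member without overlap. Of 6 genes 3 were lower and 3 higher by sign, and the median log2 fold change of -0.02 was -0.12 without Plscr5-/- replicate 1. Wdr19, or IFT144, had the smallest p of the group: it was at 15.54, 13.95 and 13.08 TPM in Plscr5-/- and 17.63, 15.07 and 15.68 TPM in wild type (log2 fold change -0.17, SE 0.11, limma unadjusted p = 0.159). Its groups overlapped through Plscr5-/- replicate 1. Ift122 was at 29.03, 25.96 and 24.22 TPM and at 29.08, 26.60 and 26.31 TPM (log2 fold change -0.05, SE 0.10). Replicate 1 was the highest library in each genotype.

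Ift43, a small subunit, was the most abundant IFT-A gene, at 65.20, 65.39 and 73.76 TPM in Plscr5-/- and 68.96, 62.92 and 67.40 TPM in wild type. Ttc21b, or IFT139, was the least abundant, at 12.23, 8.63 and 7.81 TPM and at 11.24, 9.46 and 7.38 TPM. Its spread over libraries, with a coefficient of variation of 20.4%, was far wider than its difference between genotypes. Ift140 had the narrowest spread of all 37 members, with a coefficient of variation of 1.25%, at 18.3 ± 0.28 and 18.3 ± 0.23 TPM. Wdr35, or IFT121, was at 20.3 ± 1.94 and 21.1 ± 2.13 TPM.

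Among the motors, no gene of the heterotrimeric kinesin-2 that drives transport towards the tip differed detectably in level. Its motor subunit Kif3a was at 60.46, 58.04 and 49.49 TPM in Plscr5-/- and 63.13, 56.33 and 47.35 TPM in wild type, with replicate 3 lowest in each genotype. The partner motor Kif3b was at 20.3 ± 0.57 and 20.2 ± 0.42 TPM, and the accessory subunit Kifap3 at 36.7 ± 2.52 and 33.9 ± 4.48 TPM. Of the summed level of these 3 genes, Kif3a held 49.5 ± 1.37% in Plscr5-/- and 50.6 ± 1.61% in wild type, Kif3b 18.0 ± 0.99% and 18.6 ± 2.24%, and Kifap3 32.5 ± 0.40% and 30.8 ± 0.68%. The Kifap3 share did not overlap, at 32.4%, 32.1% and 32.9% in Plscr5-/- and 31.3%, 31.1% and 30.0% in wild type. This is a description of shares of 1 sum. Kif17, a homodimeric kinesin-2 known from neurons and photoreceptors, was the lowest of the 37 members. It was at 3.52, 3.16 and 3.08 TPM in Plscr5-/- and at 2.46, 2.77 and 2.90 TPM in wild type, with no overlap (log2 fold change 0.20, SE 0.15, limma unadjusted p = 0.224). Neuron markers were higher in Plscr5-/- by sign at 9 of 10 genes. Their median was lowest in wild type replicate 3, the library with the highest wild type value of Kif17. The part of these markers in the Kif17 values was not tested.

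The genes of cytoplasmic dynein-2 were lower by sign and overlapped. Dync2li1, the light intermediate chain, was at 47.77, 44.59 and 43.82 TPM in Plscr5-/- and 52.96, 45.43 and 48.53 TPM in wild type (log2 fold change -0.11, SE 0.09, limma unadjusted p = 0.256). Dync2h1, the heavy chain that holds the motor, was at 8.45 ± 1.14 and 8.84 ± 1.55 TPM.

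The wider cilium was described by 6 further lists of 99 distinct genes, of which 92 were tested and 0 differed after adjustment (smallest limma adjusted p = 0.989). Of the 92, 3 (3.26%) had an unadjusted p under 0.05, all 3 higher in Plscr5-/-, where 4% of all tested features did in either direction, 2.15% higher and 1.85% lower. They were B9d2, Hhip and Plk1. B9d2, a transition zone gene, was at 20.4 ± 1.64 and 16.0 ± 1.01 TPM. Hhip, a Hedgehog target that binds the ligand, was at 3.49 ± 0.55 and 2.04 ± 0.71 TPM. Plk1, a mitotic kinase that also promotes loss of the cilium, was at 8.07 ± 0.93 and 5.75 ± 1.07 TPM. In each of the 3 the groups did not overlap. Over the 92 genes, 4 higher and 3 lower did not overlap (7.61%), beside 9.33% of all tested features (4.60% higher, 4.74% lower). The others without overlap were Aurka, which was higher, and Intu, Rfx5 and Foxj1, which were lower.

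Other transport genes were lower at 14 of 19 tested members, with a median log2 fold change of -0.03, and held Bbip1, the smallest BBSome subunit, at 77.6 ± 2.31 and 70.7 ± 7.11 TPM, and Dynlrb1, a dynein light chain, at 381 ± 11.7 and 358 ± 31.7 TPM. Transition zone genes were lower at 12 of 21 (median -0.02), with Tctn1 at 35.8 ± 0.75 and 41.3 ± 7.28 TPM. Genes of the basal body and of ciliogenesis were lower at 15 of 22 (median -0.07), with Intu, a planar polarity effector, at 6.73 ± 0.60 and 8.17 ± 0.59 TPM and Fbf1, a transition fibre gene, at 41.9 ± 8.30 and 48.6 ± 1.91 TPM. Of 10 ciliogenic transcription factors 6 were tested, and all 6 were lower by sign (median -0.16). The 2 with the smallest p were Rfx5, an RFX factor known mainly for control of MHC class II genes, at 25.6 ± 0.74 and 29.1 ± 2.51 TPM, and Foxj1, the regulator of motile cilia, at 5.21 ± 0.32 and 6.44 ± 0.77 TPM. Neither Rfx5 nor Foxj1 overlapped between groups or passed the test. Hedgehog pathway genes, whose signal runs through the primary cilium, were higher at 9 of 14 (median 0.02), with Gli1, a transcriptional target of the pathway, at 13.0 ± 1.44 and 10.9 ± 2.09 TPM. Genes of cilia disassembly were higher at 8 of 10 (median 0.07), with Aurka at 6.38 ± 0.46 and 5.04 ± 0.33 TPM.

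Marker lists of cochlear cell types differed in sign, and no marker of any list passed after adjustment (smallest limma adjusted p = 0.989). All 10 supporting cell markers were lower in Plscr5-/- by sign, with a median log2 fold change of -0.17. Their summed level was 4548 to 4718 TPM against 4992 to 5905 TPM in wild type. Most of that sum was 1 gene, Tectb, at 3587 to 3829 TPM in Plscr5-/- and 4001 to 4754 TPM in wild type. Of 10 hair cell markers 8 were lower (median -0.12), with a summed level of 704 to 752 TPM against 750 to 846 TPM. No marker of either list was at 0 in any library. Of 10 dividing cell markers 9 were higher (median 0.27), with sums of 194 to 248 TPM in Plscr5-/- and 134 to 219 TPM in wild type. Without replicate 3 the wild type sums were 216 and 219 TPM, within the Plscr5-/- range. Also higher by sign were 9 of 10 neuron markers (median 0.79, sums of 791 to 980 and 436 to 824 TPM) and 9 of 10 Schwann cell markers (median 0.73, sums of 1530 to 2342 and 572 to 1519 TPM). Wild type replicate 3 gave the lowest sum of both. The other wild type neuron sums were 698 and 824 TPM, overlapping Plscr5-/-, and the Schwann cell sums were 1423 and 1519 TPM, just below it. Of 9 tested osteoblast markers 8 were higher (median 0.22, sums of 232 to 288 and 96.3 to 255 TPM). Outside wild type replicate 3 these sums were mostly Spp1, at 212.23, 226.00 and 178.85 TPM in Plscr5-/- and 147.43, 198.97 and 40.10 TPM in wild type. Of 10 mesenchyme markers 7 were higher (median 0.04, sums of 2221 to 2314 and 1995 to 2378 TPM). In bulk tissue, fewer cells of a type and less RNA per cell cannot be told apart. The part of these markers in the Bbs5 and Ttc8 values was not tested. Without wild type replicate 3, in which the supporting cell median was highest and the nerve medians lowest, the log2 fold change was -0.33 for Bbs5 and -0.28 for Ttc8. Without Plscr5-/- replicate 1 it was -0.30 and -0.29. These fits cannot separate the markers from the 2 genes. The centred supporting cell medians of wild type replicates 1 and 2 (0.12 and 0.00) also lay above those of Plscr5-/- (-0.07, -0.12 and -0.10).

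**Figure D4:**
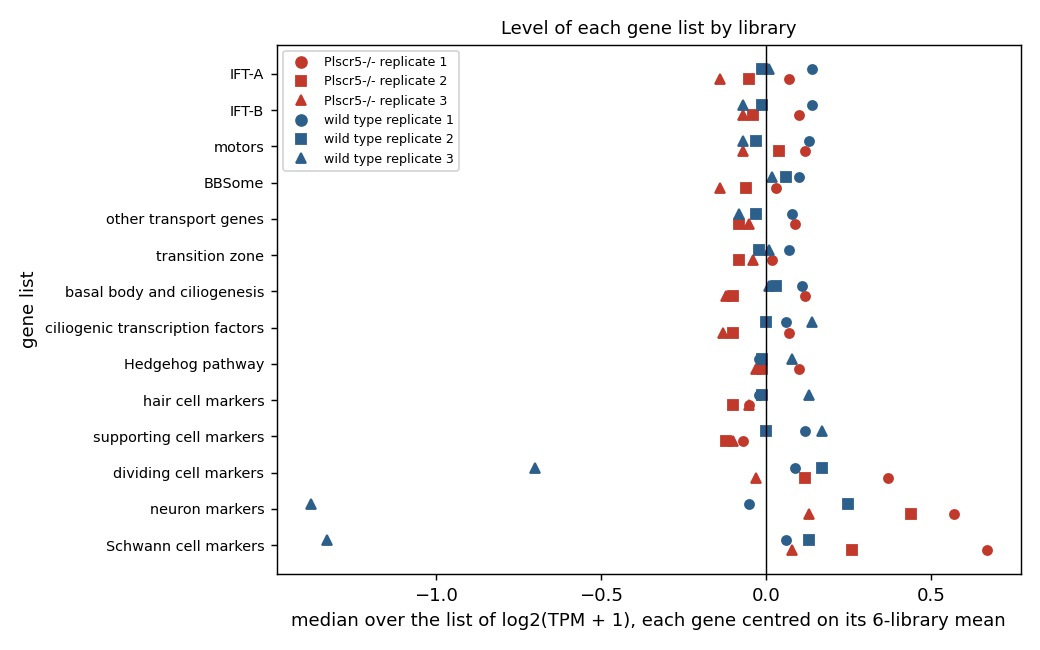
Median over each gene list of log2(TPM + 1), each gene centred on its mean over 6 libraries, with 1 point per library (red, Plscr5-/-; blue, wild type; marker shape, replicate number). The 4 ciliary transport groups lie between -0.14 and 0.14 in every library, while neuron and Schwann cell markers of wild type replicate 3 lie at -1.38 and -1.33.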

How the data were processed

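Each of the 6 deposited files gives 1 value per feature in TPM, read from the values: they have 2 decimals and sum to 999999 or 1000000 in each library, rounded to whole numbers. The submitters' processing notes name DESeq2 and mm8 without a role for either, and no source used here gives the aligner, quantifier or annotation. Symbols, transcript lengths and exon overlaps came from GENCODE M21 (GRCm38), which matched all 37 members, and promoter windows came from RefSeq (GRCm38.p6). Because these builds differ from mm8, coordinates belong to the promoter windows alone.

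The 17097 features at 1 TPM or more in 3 or more libraries were tested as log2(TPM + 1) with limma 3.58.1 in R 4.3.3, using an intensity trend, robust moderation and Benjamini-Hochberg adjustment at 0.05. On simulated data with the spreads of the 17097 features, 26 of 67 features changed 1.5-fold passed (38.8%). At 2-fold 43 of 67 passed (64.2%), at 4-fold 64 of 66 (97%), and 4 unchanged features passed. The changed features were planted together and drawn only from those above a set mean level. Their many calls loosened the adjusted cutoff. In the real data 2 features passed, so these shares can overstate what would be detected there.

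Members and lists were chosen with earlier results of these data known. The tests were two-sided. Members were given by library where the unadjusted p was under 0.05, where the genotypes did not overlap, for the 2 smallest p-values of each group and for the highest and lowest level of each group. Ift172 and Arl6 were given by library after their values were seen, and from the other cilium lists the 2 genes with the smallest p were named. Alternatives were pseudocounts of 0.1 and 5, no filter or 5 TPM, 2 scalings, removal of mitochondrial and haemoglobin genes, no variance trend, a replicate block and each library left out.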

Additional observations from a re-analysis of the deposited data

How the results depend on the processing

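Members called after adjustment stayed at 0, and members with an unadjusted p under 0.05 at 2, in all 15 alternative settings, and other cilium genes called stayed at 0. Over all features, the 2 calls became 1 with median ratio scaling and with mitochondrial and haemoglobin genes removed, 0 without a filter, without the variance trend and with the replicate block, and 0 to 3 with single libraries left out. Features with an unadjusted p under 0.05 numbered 684, against 1250 with the block, 354 without Plscr5-/- replicate 2 and 1046 without wild type replicate 2. The cause was not tested. The labels give replicate numbers and do not say whether these pair the libraries. Deviations of same-numbered libraries correlated at 0.19, -0.05 and 0.24. Replicates 1 and 3 correlated best with their own number and replicate 2 did not. The replicate block changed no call of a member, with Bbs5 at -0.38, Ttc8 at -0.27 and Plscr5 at -1.28. With single libraries left out, the IFT-A median ran from -0.12 to 0.00, the IFT-B median from -0.10 to 0.02, the motor median from -0.05 to 0.09, and Ift122 from -0.12 to 0.01, changing sign without Plscr5-/- replicate 3. Of 119 checks on 8 members with printed fold changes, 118 kept sign and call. Depth is unknown, so no counting error can be given.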
